A study of Homo sapiens with 115 samples.

Results

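The genes described here are those that encode the proteins of the mitochondrial ribosome. They were taken by symbol, as the entries of the deposited gene count table that start with MRPL (large subunit) or MRPS (small subunit) followed by digits and at most 1 letter A, B or C, and 78 of the 43386 entries met this rule, 49 with an MRPL and 29 with an MRPS symbol. Of 92 entries that start in this way, the 14 left out were 8 numbered copies of a name and 6 pseudogenes, divergent or antisense transcripts. Their level was followed through single HCT116 cells, a human colorectal cancer line, in 2 forms, the p53+/+ line (72 cells) and the p53−/− line (43 cells), both of them homologous recombinants, so that each genotype is 1 line. The labels give every cell a dose of 8 Gy, and the unirradiated cells, [N] (6 p53+/+ and 7 p53−/− cells), carry day 0. Pre-budding polyploid cells, [P], were picked at day 7 (6 p53+/+ and 11 p53−/− cells). Polyploid cells in the act of budding, [B], were picked at day 10 (28 and 8 cells), as were the small cells they had budded, [S] (21 and 9 cells). All days given here are those of the labels, whereas a figure legend of the study puts [B] and [S] at day 9. Repopulated cells, [R], were picked at day 30 (11 and 8 cells). Single cells were chosen under the microscope, and their RNA was amplified at full length (SMART-seq) without molecular identifiers.

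Mitochondria keep their own ribosome, which translates the few messenger RNAs of the mitochondrial genome into core subunits of the respiratory chain. All of its proteins are encoded in the nucleus, made in the cytosol and imported, while its ribosomal RNAs are transcribed in the organelle. The ribosome descends from that of a bacterium. Many of its proteins have a bacterial homologue, and others were added during the evolution of mitochondria. The small subunit binds the messenger RNA and decodes it, and the large subunit joins the amino acids and releases the chain at the inner membrane.

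Counts per cell ranged from 4056329 to 100173192, with a median of 34238237. CPM is the count of a gene scaled to the total count of its cell, so it is a share, and a difference in the total RNA of a cell does not appear in it. CDKN1A, an inhibitor of cyclin-dependent kinases, had a median of 988 CPM in p53+/+ and 172 CPM in p53−/− cells over all stages. In [N] alone the medians were 72.4 and 83.8 CPM. Of the 5 epithelial markers, EPCAM, KRT8, KRT18 and KRT19 were counted in all cells and CDH1 in all but 4 of them (median 30.1 CPM). The fibroblast marker COL1A1 was counted in 93 cells, with a median of 2.50 and a highest level of 62.3 CPM, and the fibroblast, leukocyte and endothelial marker lists had medians of 0 to 4.95 summed CPM in every stage.

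The members were expressed in nearly every cell. Of the 78 genes, 72 had counts in all cells and 5 in all cells but 1. The exception was MRPS18B, a small subunit protein whose gene lies in the major histocompatibility complex region at chr6:30617840-30626392 (GRCh38). It had 0 counts in all cells, and so had its 6 numbered copies in the table. Among 97 entries with exactly 6 such copies 47.4% were at 0, against 19.01% of 37803 entries with no copy, so 0 counts for MRPS18B were not read as a lack of expression. The remaining 77 members all passed the filter on low counts and were tested. For a few of them reads may be split between entries. The numbered copy MRPL45_1 held 176% of the counts of MRPL45 and the pseudogene MRPL45P2 32.7%, the copy MRPS36_1 held 13.9% of those of MRPS36, the pseudogene MRPS31P5 10.8% of those of MRPS31, and the antisense entry MRPL20-AS1 13.01% of those of MRPL20.

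As a sum, the members made up a larger share of the counts in unirradiated p53+/+ cells than later. In [N], the p53+/+ cells had a lowest, median and highest summed level of 11565, 17407 and 19859 CPM, and the p53−/− cells 11522, 12248 and 16806 CPM. In [P], the p53+/+ cells stood at 7784, 10611 and 10874 CPM and the p53−/− cells at 6824, 10083 and 20511 CPM. In the p53+/+ line these groups did not overlap, since every [P] cell was below every [N] cell, while in the p53−/− line 3 [P] cells stood above the median of [N]. In [B], the p53+/+ cells had 7363, 11832 and 18844 CPM and the p53−/− cells 5713, 9354 and 17269 CPM. In [S], the p53+/+ cells had 7195, 11238 and 17382 CPM and the p53−/− cells 8421, 10180 and 12551 CPM. Both stages overlapped with [N] in both lines. In [R], the p53+/+ cells had 10113, 10868 and 12607 CPM and the p53−/− cells 9864, 11216 and 13006 CPM. The repopulated cells were thus the most alike, with a coefficient of variation of 8.20% in p53+/+ and 8.92% in p53−/− cells, compared with 12.3% to 38.4% in the 8 other groups.

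**Figure D1:**
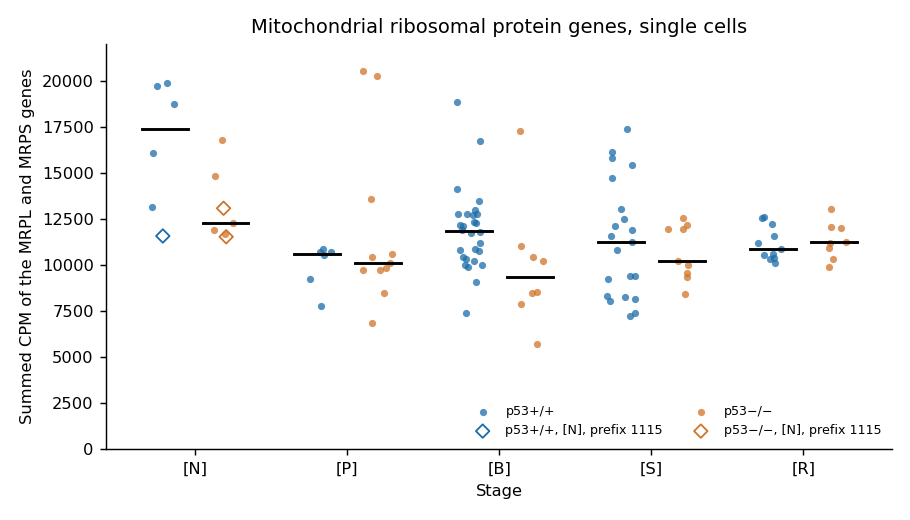
Summed CPM (counts scaled to the total of each cell) of the 78 MRPL and MRPS genes in each cell, by stage on the x axis and line by colour. Each point is a cell, black bars are medians, and open diamonds are the [N] cells of name prefix 1115; 5 of the 6 [N] p53+/+ cells lie between 13163 and 19859 CPM, and the [R] cells lie between 9864 and 13006 CPM.

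The MRPL and MRPS sums kept a similar ratio in the median cell of each stage, while single cells differed. These sums go by symbol, so that of MRPS includes MRPS30 and MRPS18A of the large subunit. The summed CPM of the MRPL genes was 2.01 times that of the MRPS genes in the median [N] cell (range 1.85 to 2.33, n = 13), and the median was 1.91 in both [P] and [B] and 1.93 in both [S] and [R]. The ranges of all 5 stages overlapped, with 1.68 to 2.38 in [P], 1.40 to 2.24 in [B], 1.64 to 2.36 in [S] and 1.65 to 2.12 in [R]. Across all cells (72 p53+/+ and 43 p53−/−) the MRPL and the MRPS sum correlated at a Pearson r of 0.92 and a Spearman rho of 0.95, where both sums are shares of the same library. The members' sum followed that of the nuclear subunits of oxidative phosphorylation less closely (r = 0.78, rho = 0.59) and that of the cytosolic ribosomal proteins least (r = 0.36, rho = 0.23), over the same cells.

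Levels of different members were compared per kilobase of their GENCODE canonical transcript, as the mean of the p53+/+ and the p53−/− sum of [N]. MRPL51 was highest at 544 CPM per kilobase (658 and 429 in the p53+/+ and p53−/− sum), followed by MRPL27 at 515, MRPL13 at 451, MRPL14 at 355 and MRPL18 at 351. All 5 belong to the large subunit. The 2 sums of each of these genes overlapped with those of the next gene in this order. The lowest were MRPS11 at 32.6, MRPL19 at 31.8, MRPS33 at 28.8, MRPS25 at 22.9 and MRPL30 at 15.7 CPM per kilobase, which are genes with transcripts of 3392 to 7825 bases, so that the order at this end depends on which transcript is taken. Of neighbours in this order, only MRPS25 (25.7 and 20.1) and MRPL30 (14.2 and 17.2) did not overlap.

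The stages were compared on the counts of all cells of a stage and line added up, which gives n = 2 values a stage (1 per line), in edgeR with the Benjamini-Hochberg adjustment over 19894 genes. A gene was called at an adjusted p under 0.05. Fold changes are on the log2 scale, and levels of single genes are CPM of these sums after TMM scaling, first p53+/+ and then p53−/−.

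In pre-budding cells most members stood below their level in unirradiated cells, although none was called. The median log2 fold change of [P] versus [N] was -0.47 over the 77 members and 0.15 over all genes tested, and 73 of 77 members were below 0. By edgeR 0 members were called (0.0201% of all genes were), while at an unadjusted p under 0.05 there were 21 members lower (27.3%, against 4.9% of all genes) and 0 higher (7.01% of all genes were). DESeq2 called 9 members lower (1.26% of all genes were). Both [P] sums were below both [N] sums for 46 members (59.7%, against 19.9% of all genes). The median difference was -0.85 in the p53+/+ and -0.14 in the p53−/− line. MRPL1, a protein of the stalk near the exit site of the large subunit, was at 180 and 128 CPM in [N] and at 63.9 and 58.2 CPM in [P] (log2 fold change -1.33, standard error 0.27, edgeR adjusted p = 0.284). MRPL38 was at 237 and 225 CPM in [N] and at 114.8 and 71.6 CPM in [P] (-1.31, standard error 0.30, edgeR adjusted p = 0.284). MRPS30, which carries a small subunit name but sits in the large subunit, was at 222 and 193 CPM in [N] and at 84.6 and 91.7 CPM in [P] (-1.23, standard error 0.32, edgeR adjusted p = 0.286). For these 3 genes no [P] sum reached the [N] sums. The 3 members with the largest positive values were MRPL33 (0.80, edgeR adjusted p = 0.445), MRPS33 (0.35) and MRPL17 (0.35), and of these only MRPL33 did not overlap with [N] (26.8% of all genes were higher without overlap).

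Most members also stood lower in budding than in unirradiated cells. The median of [B] versus [N] was -0.50 over the members and 0.20 over all genes, and 65 of 77 members were below 0. By edgeR 0 members were called (0.658% of all genes were). At an unadjusted p under 0.05, 21 members were lower (27.3%, against 9.16% of all genes) and 1 was higher (9.37% of all genes were). DESeq2 called 13 members lower (5.18% of all genes were), and edgeR called 2 without a filter on low counts, MRPL39 and MRPS30 (1.65% of all genes were called lower). With the line as a block, which pairs the sums of a line, 4 members were called lower (5.19% of 77; 2.2% of all genes were). They were MRPL39, MRPS27, MRPL19 and MRPL1. MRPL39, a mitochondria-specific large subunit protein encoded at chr21:25585656-25607859, was at 188 and 177 CPM in [N] and at 83.9 and 53.9 CPM in [B] (-1.40, standard error 0.28, edgeR adjusted p = 0.0568, and 0.0235 with the line as a block). MRPS27, an RNA-binding protein with pentatricopeptide repeats in the small subunit, encoded at chr5:72219403-72320240, was at 198 and 194 CPM in [N] and at 95.3 and 72.9 CPM in [B] (-1.22, edgeR adjusted p = 0.0278 with the block). MRPL19, a large subunit protein with a bacterial homologue, was at 284 and 214 CPM in [N] and at 138 and 79.1 CPM in [B] (-1.20, edgeR adjusted p = 0.0309 with the block). MRPL1 was at 75.7 and 64.5 CPM in [B] (-1.13, edgeR adjusted p = 0.0374 with the block). In each of these 4 genes both [B] sums were far below both [N] sums. MRPS30 (-1.26) and MRPL3 (-1.24) had differences of the same size, with edgeR adjusted p of 0.0639 and 0.0774 with the block, and DESeq2 called both (adjusted p = 0.00804 and 0.0281).

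Not all members shared this direction. MRPL33, one of the smallest proteins of the large subunit, was at 126 and 112.4 CPM in [N] and at 203 and 245 CPM in [B] (0.91, standard error 0.38, edgeR adjusted p = 0.244). MRPL54 had a log2 fold change of 0.50 (54.2 and 49.4 CPM in [N], 87.7 and 58.4 CPM in [B]) and MRPL52 of 0.41 (109 and 89.6 CPM in [N], 148 and 115.6 CPM in [B]), also with no overlap and not called. These 3 were the only members (3.9%) with both [B] sums above both [N] sums, against 31.8% of all genes, and 40 members (51.9%, against 22.9%) had both sums below. Single cells scattered widely around these values. MRPL33 ranged from 73.8 to 1328 CPM over the 8 [B] p53−/− cells, and MRPL39 from 0 to 422 CPM over the 28 [B] p53+/+ cells, against 109 to 248 CPM over the 6 [N] p53+/+ cells.

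The lower level was also present in progeny cells. The median of [S] versus [N] was -0.30 over the members and 0.15 over all genes, with 56 of 77 below 0. The median difference was -0.41 in the p53+/+ and -0.25 in the p53−/− line, where [B] versus [N] had -0.34 and -0.63. By edgeR 0 members were called (0.0704% of all genes were), 10 members were lower at an unadjusted p under 0.05 (12.99%, against 5.49% of all genes) and 0 were higher (7.84% of all genes were). DESeq2 called 2 lower (1.54% of all genes were), which were MRPL39 (80.5 and 75.2 CPM in [S], -1.23, edgeR adjusted p = 0.200) and MRPS27 (94.4 and 84.1 CPM in [S], -1.13). MRPL42 was at 690 and 485 CPM in [N] and at 302 and 224 CPM in [S] (-1.16, edgeR adjusted p = 0.274). MRPL54 (0.71), MRPL33 (0.71) and MRPL52 (0.63) had the largest positive values, without overlap and with edgeR adjusted p of 0.397 to 0.441. In all 7 members (9.09%) were higher without overlap, against 24.7% of all genes.

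Repopulated cells had lower levels over nearly all members at once. The median of [R] versus [N] was -0.51 over the members and 0.02 over all genes, and all 49 MRPL genes and 25 of 28 MRPS genes were below 0. Both [R] sums were below both [N] sums for 61 members (79.2%, against 20.5% of all genes). This share was 82.4% for the cytosolic ribosomal proteins and 81.8% for the subunits of oxidative phosphorylation. At an unadjusted p under 0.05, 11 members were lower (14.3%, against 4.13%) and 0 were higher (4.47% of all genes were). By edgeR 0 members were called (0% of all genes were), and 0 by DESeq2 (2.02% of all genes were). MRPS14, a small subunit protein with a bacterial homologue, was at 146 and 89.1 CPM in [N] and at 58.1 and 57.7 CPM in [R] (-1.02, standard error 0.36, edgeR adjusted p = 0.563). MRPL32 (-0.97) and MRPL16 (-0.92) followed. The largest positive values, those of MRPS35 (0.12), MRPS2 (0.05) and MRPS10 (0.02), were within the spread of the sums.

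**Figure D2:**
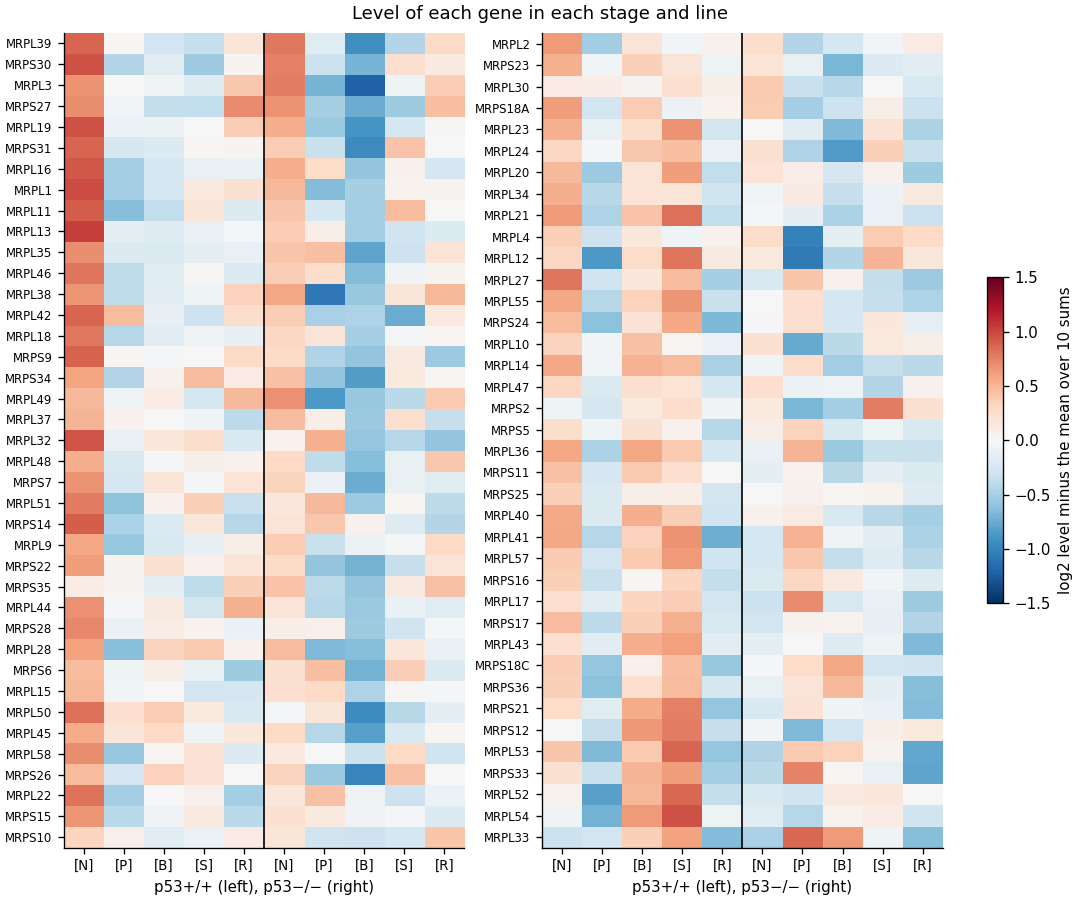
Level of each of the 77 tested genes (rows, ordered by the log2 fold change of [B] versus [N]) in the 10 sums (columns: 5 stages of p53+/+, then 5 of p53−/−), as log2 CPM minus the mean of the gene over the sums. Red is above and blue below that mean; [N] holds the highest stage mean for 54 of the 77 genes, while MRPL33, MRPL54 and MRPL52 stand higher in [B] than in [N] in both lines.

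All these comparisons share the [N] cells. Averaged over the lines, [N] was the highest of the 5 stages for 54 members (70.1%, against 19.1% of all genes), [S] for 16, [B] for 4, [R] for 2 and [P] for 1. No member had its lowest mean in [N] (26.4% of all genes did), and the lowest stage was [R] for 31, [P] for 23, [B] for 22 and [S] for 1.

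The [N] cells fall into 2 name prefixes, the digits at the start of a cell's title, and the members differed between them. In p53+/+, the 5 cells of prefix 0109 had 13163 to 19859 summed CPM (median 18721) and the 1 cell of prefix 1115 had 11565 CPM. In p53−/−, the 5 cells of 0109 had 11670 to 16806 CPM (median 12248) and the 2 cells of 1115 had 11522 and 13071 CPM. Only [P] shares a prefix with [N]. All [P] p53+/+ cells are of prefix 1115, while those of p53−/− fall into 3 prefixes. Their medians were 10582 CPM in 1115, 9913 CPM in 1118 and 15023 CPM in 1206, where the 4 cells ranged from 8451 to 20511 CPM. Within prefix 1115 the median difference of [P] from [N] was -0.12 in both lines (0.12 and 0.05 over all genes), with 46 of 77 members lower in each. With [N] taken from the cells of prefix 1115 alone, the members had medians of -0.08, -0.11, 0.06 and -0.11 for [P], [B], [S] and [R], while that of all genes was 0.44, 0.49, 0.44 and 0.26. The members minus all genes were then at -0.52, -0.59, -0.38 and -0.37, while their own level was near that of [N] with this choice of cells. In that fit MRPS27 (-1.47) and MRPS30 (-1.43) were called lower and MRPL33 (2.04) was called higher in [B] versus [N], with edgeR adjusted p of 0.0318, 0.0422 and 0.0343 (1.6% of all genes were called lower and 2.95% higher). The p53+/+ sum of [N] decided much of the median as well. Without it, the medians for [P], [B], [S] and [R] versus [N] were -0.32, -0.19, -0.04 and -0.27. Without the p53+/+ sum of [B], which left the 8 p53−/− cells, the median of [B] versus [N] was -0.82, and without the p53−/− sum of [B] it was -0.20. In [S] versus [N] it was -0.49 without the p53−/− sum of [N], -0.47 without the p53+/+ sum of [S] and -0.23 without the p53−/− sum of [S].

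**Figure D3:**
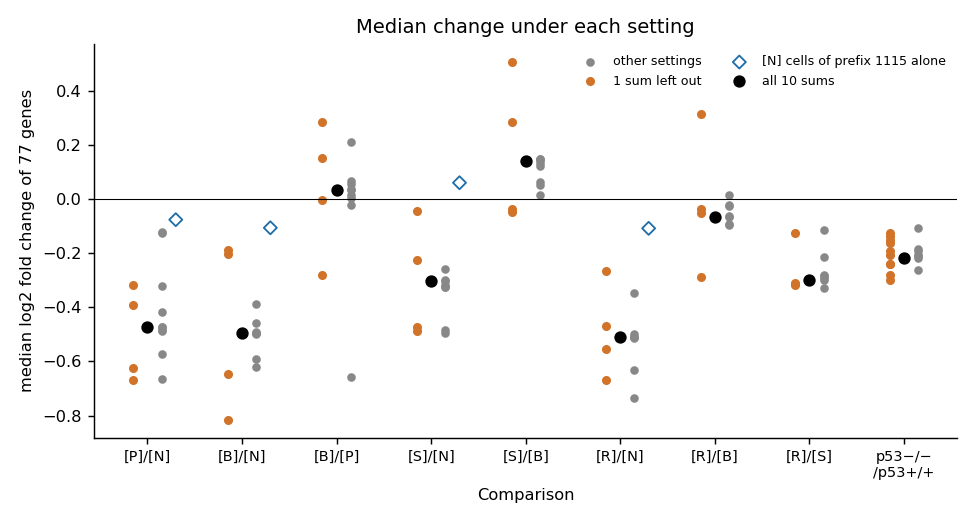
Median log2 fold change of the 77 tested genes (y axis) in each of the 9 comparisons (x axis): with all 10 sums (black), with 1 sum left out (orange), with [N] cells of name prefix 1115 alone (open diamonds) and under the other settings (grey). In [S] versus [N] the diamond lies at 0.06 and the black point at -0.30.

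From pre-budding to budding cells the members had no common direction. The median of [B] versus [P] was 0.03 (0.02 over all genes), 33 of 77 were below 0, and 0 members were called by edgeR (0% of all genes were) or DESeq2 (0.643% of all genes were). At an unadjusted p under 0.05, 3 were higher (3.9%, against 1.95% of all genes) and 0 lower (3.23% of all genes were). The lines differed, since the median difference was 0.41 in p53+/+ and -0.34 in p53−/−, and this was not tested, as each line has 1 sum a stage. The [P] sums of the lines also differ in name prefix, with 1 prefix in p53+/+ and 3 in p53−/−. Leaving out the p53+/+ sum of [B] gave a median of -0.28 and leaving out the p53−/− sum of [B] gave 0.29. The prefixes 1118 and 1206, each with 1 [B] cell and 4 [P] cells of p53−/−, gave 0.21 and -0.66 (-0.06 and -0.40 over all genes). MRPL54 was at 34.5 and 41.9 CPM in [P] and at 87.7 and 58.4 CPM in [B] (0.94, edgeR adjusted p = 0.832). MRPL12, which forms the stalk that recruits translation factors, was at 135 and 117 CPM in [P] and at 295 and 180 CPM in [B] (0.92, edgeR adjusted p = 0.804). MRPL52 followed at 0.86. MRPL35 (-0.64), MRPL39 (-0.50) and MRPS6 (-0.46) had the largest negative values.

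Between budded progenies and budding cells the median difference of the members was small and varied with the name prefix. The median of [S] versus [B] was 0.14 (0.01 over all genes), 14 of 77 were below 0, and 0 members were called by edgeR (0% of all genes were) or DESeq2 (0.256% of all genes were). At an unadjusted p under 0.05, 3 were higher (3.9%, against 2.65% of all genes) and 0 lower (1.54% of all genes were). For 13 members both [S] sums were above both [B] sums (16.9%, against 15.5% of all genes). MRPS31 (0.78), MRPL11 (0.77) and MRPL12 (0.70) were the highest, and MRPL42 (-0.23), MRPL33 (-0.20) and MRPL40 (-0.18) the lowest. With counts added per name prefix, and prefix and line as blocks, the median was 0.05. Over the 11 prefixes that hold both stages it ran from -0.72 to 0.71 and was above 0 in 6. The median of 0.14 depended on which sum was left out, and it rose to 0.51 without the p53+/+ sum of [B]. It was -0.04 without the p53−/− sum of [B], -0.05 without the p53+/+ sum of [S] and 0.28 without the p53−/− sum of [S].

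From budding to repopulated cells some members were higher and others lower. The median of [R] versus [B] was -0.07 (-0.14 over all genes), with 42 of 77 below 0. By edgeR 0 members were called (0.281% of all genes were), and at an unadjusted p under 0.05 there were 5 higher (6.49%, against 9.03% of all genes) and 4 lower (5.19%, against 9.55%). The lines again differed, with a median difference of -0.35 in p53+/+ and 0.34 in p53−/−, which was not tested. Leaving out the p53+/+ sum of [B] gave 0.32 and leaving out its p53−/− sum -0.29. MRPS27 was at 95.3 and 72.9 CPM in [B] and at 198 and 167 CPM in [R] (1.12, standard error 0.28, edgeR adjusted p = 0.0853, and 0.0412 with the line as a block, where 1.81% of all genes were called higher). DESeq2 called it too, where 4.73% of all genes were called higher. Its [N] sums were at 198 and 194 CPM. MRPL3, a protein close to the catalytic centre of the large subunit, was at 292 and 131 CPM in [B] and at 403 and 397 CPM in [R] (0.92, edgeR adjusted p = 0.238). MRPL39 was at 116.4 and 125 CPM in [R] (0.81, edgeR adjusted p = 0.167). On the other side, MRPL33 was at 100.6 and 101.4 CPM in [R] (-1.15, edgeR adjusted p = 0.159), MRPL53 was at 48.4 and 46.9 CPM in [B] and 24.6 and 21.4 CPM in [R] (-1.05), and MRPS33 at 179 and 128 CPM in [B] and 88.5 and 72.8 CPM in [R] (-0.93). None of these 6 genes overlapped between the stages, as held for 18 higher (23.4%) and 20 lower members (25.97%), against 22.2% and 29.1% of all genes.

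Repopulated cells differed from progenies in the same genes in part, as both comparisons share [R]. The median of [R] versus [S] was -0.30 (-0.08 over all genes), 54 of 77 were below 0, and 0 members were called by edgeR (0.0201% of all genes were), with 3 higher (3.9%, against 6.11% of all genes) and 7 lower (9.09%, against 9.01%) at an unadjusted p under 0.05. The 1 member that was higher by DESeq2 was MRPS27 (1.03, edgeR adjusted p = 0.156), beside 2.23% of all genes. MRPL49 (0.77) and MRPL42 (0.72) were next. MRPL53 (-1.19), MRPS21 (-1.01, 377 and 206 CPM in [S] and 149 and 142 CPM in [R]) and MRPL33 (-0.95) were lowest. The median was -0.12 with library size as the only scaling and -0.13 without the p53+/+ sum of [S].

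Members with known roles that were chosen whatever their values are given for [B] versus [N]. In the large subunit, MRPL3 was at 484 and 517 CPM in [N] and at 292 and 131 CPM in [B] (-1.24). Of the factor-binding stalk, MRPL11 was at 287 and 203 CPM in [N] and 118 and 107.6 CPM in [B] (-1.12, edgeR adjusted p = 0.0934), while MRPL12 was at 303 and 271 CPM in [N] and 295 and 180 CPM in [B] (-0.27). The difference between these neighbours of the stalk was not tested. MRPL44, a protein of the ribonuclease III fold, had -0.63, and MRPL58, a peptidyl-tRNA hydrolase that rescues stalled ribosomes, -0.58. MRPS18A, which belongs to the large subunit despite its name, had -0.44 with overlapping sums. In the small subunit, MRPS34 had -0.83 and MRPS22 -0.64, both without overlap. MRPS12 of the decoding centre (0.28), MRPS16 (-0.02) and MRPS18C (0.16) overlapped. MRPS36, which was named as a ribosomal protein and is known as a subunit of the 2-oxoglutarate dehydrogenase complex, had 0.23. None of the 13 tested genes of this list, which includes MRPL33, was called by edgeR with all 10 sums, where adjusted p ranged from 0.0934 to 0.981. DESeq2 called MRPL11 (adjusted p = 0.00922) and MRPL3 (adjusted p = 0.0281).

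Grouped by ancestry, 46 tested members have a bacterial homologue and 30 are specific to mitochondria. The median of [B] versus [N] was -0.39 in the former and -0.61 in the latter, that of [P] versus [N] -0.46 and -0.55, that of [S] versus [N] -0.22 and -0.38 and that of [R] versus [N] -0.54 and -0.46. This grouping was made after values had been seen, and its difference was not tested.

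The members that stood apart, such as MRPL33, MRPL52, MRPL53, MRPL54 and MRPS33, have short coding sequences, and the fold changes were therefore set against the coding length of the annotated transcript, a step added after the values were seen. The 39 members with at most 582 coding bases had a median of -0.25 in [B] versus [N] and the 38 longer ones -0.62. For [P] versus [N] the medians were -0.32 and -0.72, and for [S] versus [N] -0.11 and -0.47. In [R] versus [N] they were -0.59 and -0.48. In [R] versus [B] the shorter members had a median of -0.36 and the longer ones of 0.23. Over the 77 members, which are not independent of each other, coding length and log2 fold change had a Pearson r of -0.61 and a Spearman rho of -0.61 in [B] versus [N], of -0.57 and -0.64 in [P] versus [N], of -0.52 and -0.54 in [S] versus [N], of 0.15 and 0.15 in [R] versus [N] and of 0.67 and 0.69 in [R] versus [B]. Over 13586 other genes with a coding length, rho was -0.01 in [B] versus [N] and 0.12 in [R] versus [B]. Those of at most 582 bases (1600 genes) had medians of 0.17 in [B] versus [N] and -0.46 in [R] versus [B], and the 11986 longer ones 0.02 and 0.07. In [R] versus [B] the rho of the members stayed between 0.64 and 0.70 in 11 alternatives. In [B] versus [N] it ran from -0.76 with [N] cells of prefix 1115 alone to -0.45 with those of 0109 alone. In [P] versus [N] it ran from -0.72 with those of prefix 1115 to -0.20 without the p53−/− sum of [P], and in [S] versus [N] from -0.72 with those of prefix 1115 to -0.24 without the p53+/+ sum of [S]. In [R] versus [N] it was -0.39 with the [N] cells of prefix 1115 alone and 0.34 with those of 0109 alone. The share of counts in the 50 highest genes of a cell moved with these stages, with medians of 17.05%, 18.9%, 22.2%, 22.7% and 15.96% from [N] through [P], [B] and [S] to [R], and its part in the result was not tested.

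**Figure D4:**
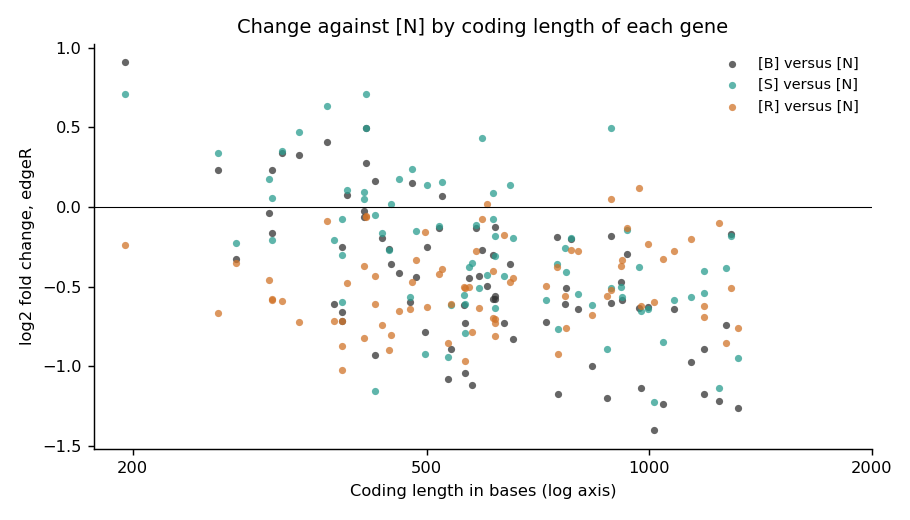
Log2 fold change from edgeR (y axis) against coding length in bases (x axis, log scale) for the 77 tested genes, in [B] (black), [S] (green) and [R] (orange) versus [N]. Most members above 0 in [B] and [S] lie at the short end, and the [R] points show no such slope.

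Other genes of mitochondrial translation were read from lists. Of the 26 assembly factors, 1 was called in [B] versus [N], MTERF3, a factor of large subunit assembly, at -1.80 (standard error 0.32, edgeR adjusted p = 0.0421), beside 0.452% of all genes called lower, and 0 were called higher (0.206% of all genes were). For [P], [B], [S] and [R] versus [N] their medians were -0.57, -0.52, -0.29 and -0.14. Of 18 mitochondrial aminoacyl-tRNA synthetases matched among 19, and of 16 translation factors, 0 were called in any of the 9 comparisons by edgeR. The synthetases, which charge transfer RNAs with amino acids, had medians of -0.77, -0.68, -0.56 and 0.00 for the same stages versus [N], and of 0.84 in [R] versus [B], where 10 of 18 were higher at an unadjusted p under 0.05 (9.03% of all genes were). The translation factors had medians of -0.51, -0.57, -0.35 and -0.26 in that order. In [B] versus [N] 13 of them were below 0, among them the elongation factor GFM1 (-1.74, and 1.93 in [R] versus [B]). LRPPRC, a messenger RNA stability factor, had -1.01 and 1.04, and TUFM, the mitochondrial EF-Tu, had -0.32 in [B] versus [N]. The 3 above 0 included MTIF3 (0.63, and -1.29 in [R] versus [B]) and SLIRP (0.21 and -0.95). The 5 ribosome proteins without an MRP symbol had a median of -0.33 in [B] versus [N], with PTCD3 lowest at -0.93 and CHCHD1 alone above 0 at 0.20. Of 13 regulators 12 were tested and 0 called, with a median of -0.14 in [B] versus [N] and 6 on each side of 0. NRF1 was at -1.52 and TFAM, which packages mitochondrial DNA and helps to start its transcription, at -1.01. MYC was at 0.52, POLRMT at 0.22 and PPARGC1B at 0.20.

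The RNA and the other proteins of translation had other values. RNR2, the 16S ribosomal RNA of the large mitochondrial subunit, rose in [B] versus [N] (2.44, standard error 0.40, edgeR adjusted p = 0.0357), whereas RNR1, that of the small subunit, had 1.04 and was not called. Both together made up 1.06% of the counts of the median [N] cell, and 3.13%, 4.58%, 3.74% and 2.24% in the median cell of [P], [B], [S] and [R]. Mitochondrial messenger RNAs were not analysed here. The 85 cytosolic ribosomal proteins tested had medians of 0.13, 0.66, 0.84 and -0.51 for [P], [B], [S] and [R] versus [N], and 2 of them were called lower in [R] versus [B] (0.166% of all genes were). The 77 subunits of oxidative phosphorylation had -0.14, -0.09, 0.03 and -0.60 versus [N], with 0 called. The members lay below both lists in [P], [B] and [S] versus [N] by their medians, a difference that was not tested.

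**Figure D5:**
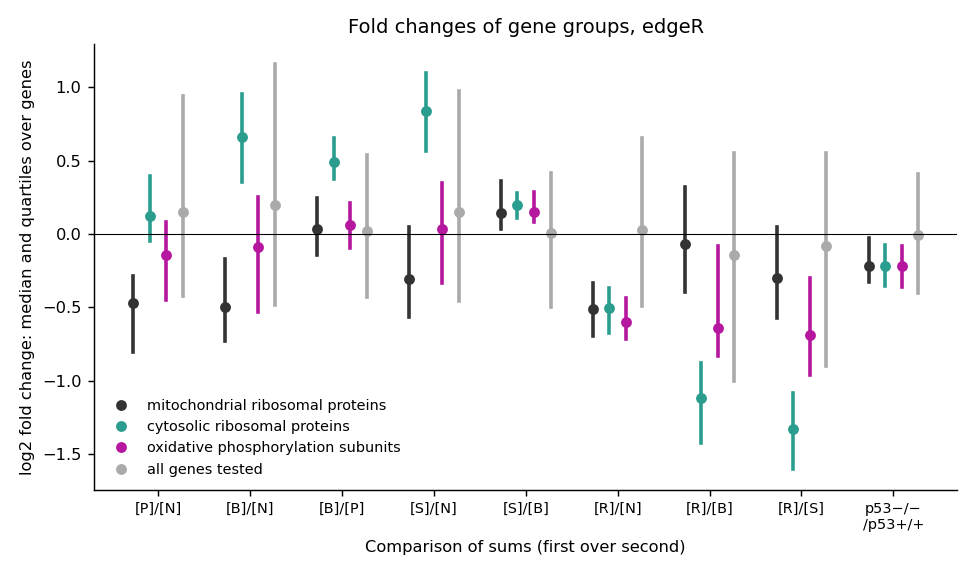
Median log2 fold change from edgeR (points, y axis) with the quartiles over genes (bars) for the MRPL and MRPS genes, the cytosolic ribosomal proteins, the subunits of oxidative phosphorylation and all genes tested, in each comparison of stages and lines (x axis). In [B] versus [N] the members lie at -0.50, the cytosolic ribosomal proteins at 0.66 and all genes at 0.20.

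Between the lines the members had no common direction over the stages. The median difference of p53−/− from p53+/+ was -0.40 in [N] (72 of 77 members below 0), 0.25 in [P] (30 below 0), -0.56 in [B] (70 below 0), -0.26 in [S] (56 below 0) and -0.02 in [R] (41 below 0), with 1 sum a line and stage and no test. In [P] the lines also differ in their name prefixes. With the stage in the model, the median of p53−/− versus p53+/+ was -0.22 (-0.00 over all genes), 63 of 77 were below 0, and 0 members were called by edgeR (0.206% of all genes were) or DESeq2 (8.22% of all genes were). At an unadjusted p under 0.05, 9 members were lower (11.7%, against 7% of all genes) and 0 higher (6.91% of all genes were), and for 0 of 77 did the 5 sums of one line lie apart from those of the other (1.19% of all genes were apart and lower and 1.04% higher). With library size as the only scaling the median of the members was -0.11 and that of all genes 0.11. MRPL50 (-0.54, standard error 0.22, edgeR adjusted p = 0.315), MRPL42 (-0.47) and MRPS9 (-0.47) were lowest. The largest positive values were 0.12 for MRPL33, 0.10 for MRPL9 and 0.06 for MRPL22.

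The 300 bases around the start of each gene (250 before and 50 after, RefSeq, GRCh38.p14) were searched on both strands for 4 motifs of factors known to act on genes of mitochondrial function, and 69 members had such a window. It lay on the outermost annotated start of the gene for 61 of them and on a start inside the gene for 8, MRPL39 among them (378 bases inside). The YY1 motif AAGATGGC was in 20 of them (29.0%, against 3.20% of all 22498 promoters and 4.69% of those of tested genes). The ETS motif CCGGAAGT was in 11 (15.9%, against 4.77% of all and 7.77% of tested genes), the NRF1 motif GCGCATGC in 6 (8.70%, against 3.47% and 5.13%) and the E-box CACGTG in 6 (8.70%, against 7.73% and 9.58%). Of the 20 YY1 matches, 16 lay on the strand of the gene and 16 within 50 bases of the start or after it, and of the 720 promoters of all genes with this motif 501 and 460 did. Members with any of the 4 motifs had a median of -0.60 in [B] versus [N] (29 tested) and those with none -0.36 (39 tested), and the medians were -0.48 and -0.46 in [P], -0.51 and -0.18 in [S] and -0.58 and -0.50 in [R] versus [N]. Of the single motifs, the 5 tested members with that of NRF1 had a median of 0.07 in [B] versus [N], against -0.51 without it. In [P], [S] and [R] versus [N] the medians were -0.32, -0.05 and -0.61 with the NRF1 motif and -0.50, -0.30 and -0.50 without it. Members with the YY1, ETS and E-box motifs had -0.59, -0.64 and -0.57 in [B] versus [N]. These differences were not tested. The promoters printed are those of MRPL39 (chr21:25607432-25607731, minus strand) and MRPS27 (chr5:72320191-72320490, minus strand), 2 of the 4 genes called lower in budding cells with the block. MRPL22 (chr5:154940823-154941122, plus strand) holds 3 of the motifs, and MRPL52 (chr14:22829637-22829936, plus strand) stands for the short genes that were higher in [B]. Capitals mark the motifs, in the direction in which they lie.
MRPL39: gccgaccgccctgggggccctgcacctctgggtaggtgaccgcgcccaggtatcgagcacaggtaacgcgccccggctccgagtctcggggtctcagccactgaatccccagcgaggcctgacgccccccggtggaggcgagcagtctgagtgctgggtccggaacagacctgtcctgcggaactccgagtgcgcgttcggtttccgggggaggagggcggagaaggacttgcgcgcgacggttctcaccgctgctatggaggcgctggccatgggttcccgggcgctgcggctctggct
MRPS27: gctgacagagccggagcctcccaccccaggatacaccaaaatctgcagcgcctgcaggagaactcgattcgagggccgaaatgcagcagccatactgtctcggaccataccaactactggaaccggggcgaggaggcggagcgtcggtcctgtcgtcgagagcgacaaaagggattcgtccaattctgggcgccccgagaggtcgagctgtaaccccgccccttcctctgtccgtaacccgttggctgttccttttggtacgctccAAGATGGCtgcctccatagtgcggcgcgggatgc
MRPL22: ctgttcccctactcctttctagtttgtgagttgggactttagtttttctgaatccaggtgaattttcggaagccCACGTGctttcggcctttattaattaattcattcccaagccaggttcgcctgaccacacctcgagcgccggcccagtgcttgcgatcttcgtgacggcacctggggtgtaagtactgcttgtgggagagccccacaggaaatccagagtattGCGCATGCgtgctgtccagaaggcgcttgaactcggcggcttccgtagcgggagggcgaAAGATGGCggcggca
MRPL52: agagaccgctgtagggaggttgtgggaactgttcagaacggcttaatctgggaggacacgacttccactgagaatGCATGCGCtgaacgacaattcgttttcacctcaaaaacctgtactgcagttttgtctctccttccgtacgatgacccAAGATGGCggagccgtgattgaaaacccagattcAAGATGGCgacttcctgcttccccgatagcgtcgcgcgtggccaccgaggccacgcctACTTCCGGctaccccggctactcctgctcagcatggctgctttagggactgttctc
No motif was found in the MRPL39 window, which does not cover the outermost start of that gene. MRPS27 holds the YY1 letters just after its start, MRPL22 the E-box, NRF1 and YY1 letters, and MRPL52 the NRF1, YY1 and ETS letters, with those of YY1 at more than 1 place.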

How the data were processed

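The members and gene lists were chosen with earlier results of these data known. The authors trimmed reads with fastp, aligned them with HISAT2 2.0 to GRCh38 and used StringTie, and deposited whole-number raw counts per gene and cell. The tool that made the counts is not given in the sources used here. Sequencing depth ran from 4056329 to 100173192 counts a cell.

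Cells are not replicates, so counts were added within each stage and line, giving 10 sums, n = 2 a stage. The spread between them is that between 2 lines. Genes needed to pass filterByExpr (minimum count 10) and have counts in 12 or more cells. Stages were compared in edgeR 4.0.16 (robust quasi-likelihood test, TMM scaling, prior count 2, R 4.3.3), without the line as a term, with Benjamini-Hochberg adjustment, and lines with the stage as a term. The biological coefficient of variation was 0.751. The code was tested on simulated data with a smaller spread than these data, which does not measure what these fits can call. The labels tie the sums of a number to 1 cell line, so the numbers pair them. The line difference correlated between stages at 0.074 to 0.216 (10 pairs, 6 above 0.1).

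Alternatives were the line as a block, DESeq2 1.42.0, library size scaling, no filter, cells thinned to 15435056 counts (12 cells left out), without the 4 cells absent from tables of the study, and leaving out each sum. After the data were seen, [N] cells of 1 name prefix alone were added. A check of the lines is not reported here. Genes named were those called, the 3 largest rises and falls a comparison (mean of at least 20 CPM and no cell over 50% of the counts), the 5 highest and lowest in [N], and a list by role. Other genes, such as MRPL53 in lists of short genes, were chosen after their values were seen. Coordinates are from RefSeq and lengths from GENCODE.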

Additional observations from a re-analysis of the deposited data

Results flagged for a closer look

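Among 18 groups and measures of 4 to 10 cells tested for a cell far from the others, 2 stood apart, where chance gives about 1 in 20. In the [B] p53−/− group the cell of prefix 1206 had a summed member level of 17269 CPM, the highest of 8. Its median member was at 89.6 CPM, below the group median of that measure. Its MRPL sum was 1.40 times its MRPS sum, the lowest ratio in [B]. The typical member was thus not high in this cell. Another cell of the group had a total of 59786305 counts. In 2 comparisons the lines had opposite signs, and neither difference was tested. The median difference of the members in [B] versus [P] was 0.41 in p53+/+ and -0.34 in p53−/−, and in [R] versus [B] it was -0.35 in p53+/+ and 0.34 in p53−/−. Entries outside the members also held counts over all cells. MRPL45_1 had 384178, the antisense MRPL20-AS1 92231, the pseudogene MRPL45P2 71219, MRPS36_1 41096 and the pseudogene MRPS31P5 20628 counts.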

How the results depend on the processing

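The number of members called was 0 in every comparison by edgeR, and stayed 0 when any sum was left out. DESeq2 called 9, 13 and 2 members lower for [P], [B] and [S] against [N] (1.26%, 5.18% and 1.54% of all genes were). It called 1 member higher each for [R] against [B] and against [S] (4.73% and 2.23% of all genes were). With the line as a replicate block the number was 4 lower in [B] versus [N] (2.2% of all genes were) and 1 higher in [R] versus [B] (1.81% of all genes were). The block changed no other count. In [B] versus [N] it was 2 lower with no filter (1.65% of all genes were). With [N] cells of prefix 1115 alone it was 3, where 1.6% of all genes were called lower and 2.95% higher. With these [N] cells the median was -0.11 in [B], 0.060 in [S] and -0.11 in [R] versus [N]. In [S] versus [N] it was -0.49 with [N] cells of prefix 0109 and -0.48 with cells thinned to the same depth. It was -0.66 in [B] versus [P] within prefix 1206 (-0.40 over all genes), and -0.12 in [R] versus [S] with library size scaling (0.10 over all genes). The cause was not tested.

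With 1 sum left out, the median ran from -0.67 to -0.32 in [P], -0.82 to -0.19 in [B], -0.49 to -0.044 in [S] and -0.67 to -0.27 in [R] versus [N], from -0.28 to 0.29 in [B] versus [P], -0.049 to 0.51 in [S] versus [B], -0.29 to 0.32 in [R] versus [B], -0.32 to -0.13 in [R] versus [S] and -0.30 to -0.13 between lines.

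Single genes near 0 changed sign. MRPS16 in [B] versus [N] was 0.10 with library size scaling, 0.0068 with no filter and 0.37 with [N] of prefix 1115. With [N] of prefix 0109, MRPS33 in [P] was -0.017, MRPS18C in [B] -0.23, MRPS36 in [B] -0.13 and MRPS10 in [R] -0.13 versus [N]. MRPS10 was -0.032 with thinned cells.

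With 1 sum left out, MRPL17 in [P] versus [N] ran from -0.11 to 0.72, MRPS33 in [P] versus [N] ran from -0.24 to 0.80, MRPL12 in [B] versus [N] ran from -0.67 to 0.042, MRPS12 in [B] versus [N] ran from -0.26 to 0.67, MRPS16 in [B] versus [N] ran from -0.28 to 0.37, MRPS18C in [B] versus [N] ran from -0.11 to 0.45, MRPL33 in [S] versus [B] ran from -0.62 to 0.095, MRPL40 in [S] versus [B] ran from -0.68 to 0.23, MRPS10 in [R] versus [N] ran from -0.14 to 0.16, MRPS2 in [R] versus [N] ran from -0.10 to 0.19, MRPL22 in p53−/− versus p53+/+ ran from -0.18 to 0.24 and MRPL33 in p53−/− versus p53+/+ from -0.15 to 0.31.

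Members were counted in nearly all cells, while thinning to equal depth moved the median to -0.57 in [P], -0.59 in [B] and -0.63 in [R] versus [N]. Only n = 2 sums a stage enter every test, and name prefix, stage and line cannot be told apart for [R], whose cells have 1 prefix a line.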
